A study of Mus musculus with 20 samples.

Results

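Transcripts of 8 chemokine receptor genes, Cxcr3, Cxcr4, Cxcr5, Cxcr6, Ccr4, Ccr6, Ccr8 and Ccr9, were followed in mouse regulatory T cells (Tregs) and CD8+ T cells. The genes were taken by symbol, 8 of the 23992 gene symbols in the expression tables, and each was represented by its most read transcript, summed over the 20 libraries. Tregs came from spleen and lymph node of B6-Foxp3EGFP mice, in which the Foxp3 gene drives a green fluorescent protein, by enrichment of CD4+ T cells and sorting of the fluorescent cells. CD8+ T cells came from C57BL/6J mice by an isolation kit, with no sort named. The strain label of the libraries reads C57BL/6N, which differs from the isolation notes. Cells were left unstimulated (labelled none, 0 h) or received 200 nM IL-2 or 200 nM IL-2-REH for 1.5 h or 4 h. IL-2 is the cytokine that Tregs need for survival, and IL-2-REH is a mutant of human IL-2, made on the wild-type sequence, in which contacts with the common gamma chain of the receptor were weakened. The study made its IL-2 proteins with a mouse serum albumin tag. Treg groups held 3 libraries each (15 in all), numbered 1 to 3 in their titles, and CD8+ groups held 1 library each (5 in all). Ages were not given in the sources used here, nor whether replicates came from separate animals, so p-values measure the spread between these libraries only. Unstimulated cells were labelled 0 h, so the effect of a cytokine and that of time in culture cannot be told apart in comparisons with them. Comparisons between the cytokines at the same time do not have that limit.

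Chemokine receptors are membrane proteins of the G protein-coupled family, and a T cell moves up the gradient of whichever chemokine its receptors bind. CXCR3 (ligands CXCL9, CXCL10 and CXCL11) and CXCR6 (CXCL16) lead cells into inflamed tissue, CCR4 (CCL17, CCL22) and CCR8 (CCL1, CCL8) are common on effector Tregs and skin-homing cells, CCR6 (CCL20) serves mucosal tissue, CXCR5 (CXCL13) leads to B cell follicles, CXCR4 (CXCL12) holds cells in bone marrow and lymphoid tissue, and CCR9 (CCL25) leads to the thymus and small intestine. After binding, inhibitory G proteins, a phosphoinositide 3-kinase and small GTPases of the Rac family pass the signal to the cytoskeleton.

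Of the 8 genes 5 lie on chromosome 9 of GRCm38, the build that the files name mm10. By RefSeq, over all transcripts of each gene, they are Cxcr5 (chr9:44511787-44526444), Ccr4 (chr9:114490316-114505476), Ccr8 (chr9:120092133-120094906), Ccr9 (chr9:123767211-123783457) and Cxcr6 (chr9:123806477-123811754). Ccr9 and Cxcr6 are neighbours, 23019 bases apart. Cxcr4 is at chr1:128588199-128592299, Ccr6 at chr17:8236041-8258519 and Cxcr3 at chrX:101731535-101734147. Exons of Cxcr5 overlap exons of Bcl9l on the other strand, and exons of Ccr9 overlap the annotated transcript AC165425.1 on the other strand. Whether counting used the strand was not given in the sources used here, so reads in those overlaps are uncertain.

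RefSeq promoter sequence (GRCm38.p6) matched 7 of the 8 genes, and Cxcr5 was not among them. The 250 bases before the start that the promoter table holds are shown for Ccr4 and Ccr6, whose levels ran most nearly together among the 8, and for Cxcr4, which lay on the other side of the comparison of cytokines. Capitals mark TTCNNNGAA, the core of the sites that STAT proteins bind, and TGANTCA, the core of AP-1 sites. Each reads the same on both strands as a pattern, so both strands were searched, and no match of one overlapped a match of the other.
Ccr4 (chr9:114496545-114496794, minus strand): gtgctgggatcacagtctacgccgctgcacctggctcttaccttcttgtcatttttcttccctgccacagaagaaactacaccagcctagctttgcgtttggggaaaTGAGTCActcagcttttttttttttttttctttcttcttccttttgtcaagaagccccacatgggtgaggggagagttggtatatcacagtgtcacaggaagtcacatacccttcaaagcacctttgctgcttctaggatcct
Ccr6 (chr17:8235793-8236042, plus strand): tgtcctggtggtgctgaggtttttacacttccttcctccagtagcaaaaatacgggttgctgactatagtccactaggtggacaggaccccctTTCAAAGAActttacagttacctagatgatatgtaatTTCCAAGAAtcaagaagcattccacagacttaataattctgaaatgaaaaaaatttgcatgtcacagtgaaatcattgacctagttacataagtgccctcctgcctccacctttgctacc
Cxcr4 (chr1:128592300-128592549, minus strand): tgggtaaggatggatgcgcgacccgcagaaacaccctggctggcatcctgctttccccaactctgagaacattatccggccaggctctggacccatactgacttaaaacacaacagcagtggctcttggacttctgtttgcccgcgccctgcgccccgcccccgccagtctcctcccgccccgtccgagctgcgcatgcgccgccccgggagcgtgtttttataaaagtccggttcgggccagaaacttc
The Ccr4 window lies inside the span of the gene given above, which covers all its RefSeq transcripts. It held 1 TGANTCA, with its first base 143 bases before the start in the table. In the Ccr6 window there were 2 matches to TTCNNNGAA, which began 157 and 120 bases before the start. Neither pattern was in the windows of Cxcr4, Ccr8, Ccr9, Cxcr6 or Cxcr3, nor in that of a second start of Ccr6. Of all 32851 promoters in the table, 7.02% held TTCNNNGAA and 6.75% held TGANTCA in the same 250 bases. A match is a description of letters and not of binding.

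The libraries held 20201392 to 63903764 reads on the chosen transcripts. Foxp3, the transcription factor that defines Tregs, was at 65.2 to 252 RPKM in the 15 Treg libraries and at 0.482 to 0.999 RPKM in the 5 CD8+ libraries, and Cd8a was at 0.0879 to 1.84 against 103 to 256 RPKM. RPKM divides the reads on a transcript by its exon length and by library depth, giving a level per length, so that genes can be compared. The library labelled unstimulated replicate 1 stood apart. Its log2 levels correlated with those of its own group at a mean r of 0.927 and with those of the stimulated groups at 0.960, whereas the other 2 unstimulated libraries were closer to each other (0.956 and 0.957 with the own group, 0.945 with the others). Its Ccr8 level also differed from theirs, so results against unstimulated cells are given with and without it. Some other libraries were also closer to other groups than to their own, most of all IL-2 4 h replicate 2 (0.945 own, 0.968 others). IL-2-REH 4 h replicate 2 was next (0.955 and 0.966). The own-group value of unstimulated replicate 1 was the lowest of the 15 Treg libraries. The IL-2 4 h library of replicate 3 was the shallowest, with 20201392 reads.

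**Figure D1:**
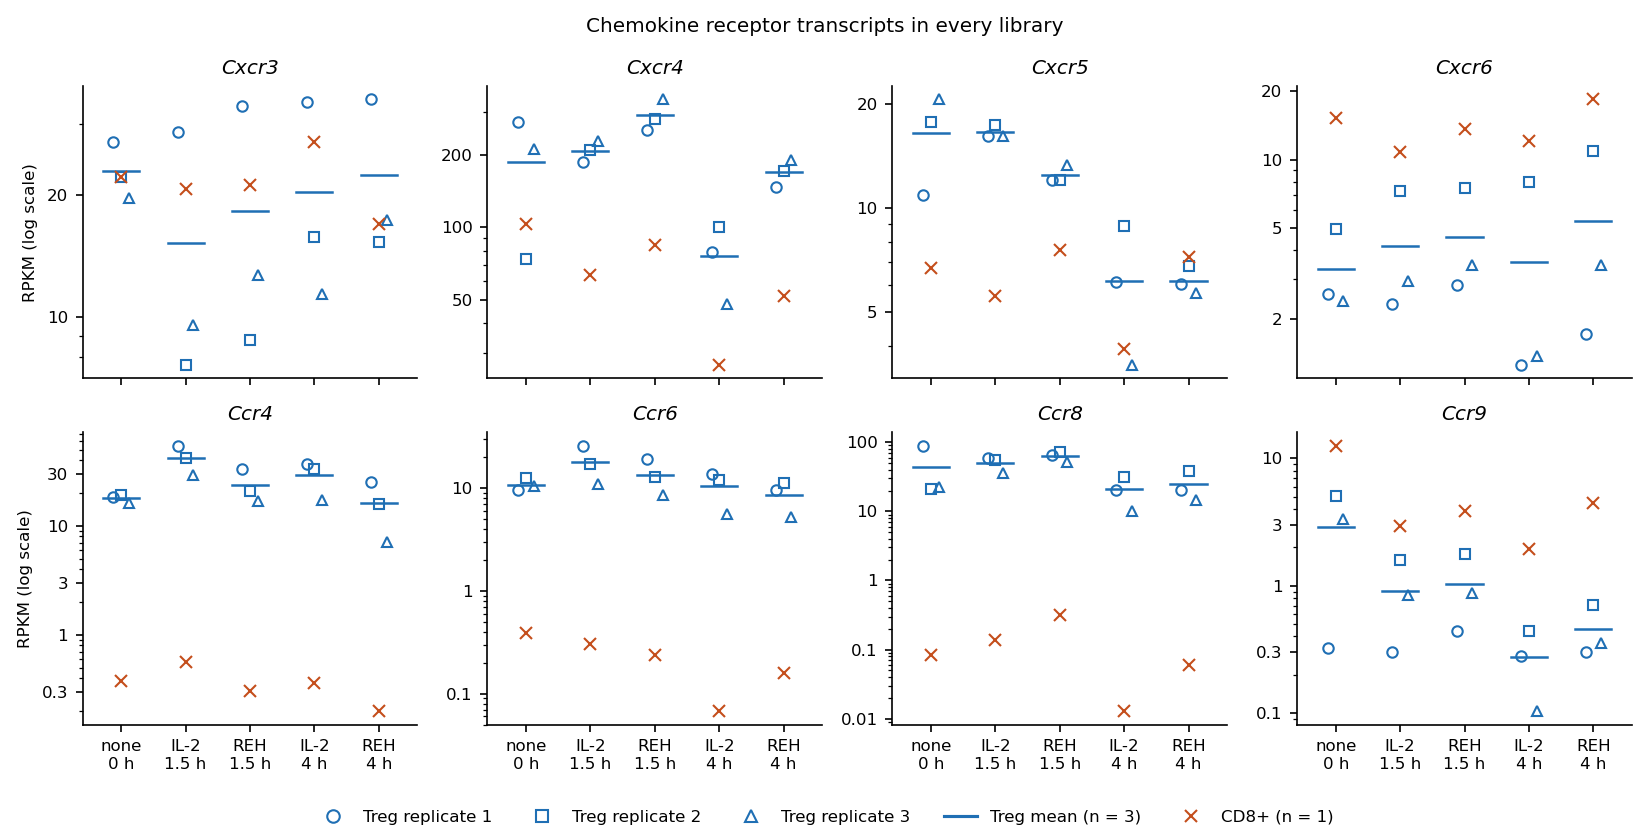
RPKM (log scale) of the 8 receptors in each library, by condition. Open symbols are Treg replicates 1 to 3, lines their means (n = 3), and crosses the single CD8+ library of each condition. Ccr4, Ccr6 and Ccr8 lie above all CD8+ libraries in all 15 Treg libraries, and Cxcr5 is lower in the Treg libraries at 4 h.

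In Tregs the order of the levels was led by Cxcr4 in every group. Over 15 libraries its mean was 186 RPKM, which placed it at rank 194 of the 10473 genes with a mean of at least 1 RPKM. Ccr8 followed with 40.7 RPKM, then Ccr4 (25.8), Cxcr3 (19.8), Ccr6 (12.3), Cxcr5 (11.6), Cxcr6 (4.19) and Ccr9 (1.12 RPKM). Most neighbours in this order were not separated. In unstimulated Tregs Cxcr4 (186 ± 102 RPKM, SD, n = 3) and Ccr8 (44.3 ± 38.7) overlapped, as did Ccr4 (18.1 ± 1.60) and Cxcr5 (16.4 ± 5.01), and Cxcr6 (3.30 ± 1.42) and Ccr9 (2.91 ± 2.4). After 4 h of IL-2, Cxcr4 (75.7 ± 26.4) was clear of Ccr4 (29.3 ± 10.6), and Cxcr6 (3.54 ± 3.85) of Ccr9 (0.274 ± 0.168), while the 5 neighbouring pairs between them overlapped. The spread between replicates was wide for some receptors. The highest library of a group was up to 15.5 times the lowest for Ccr9, 6.37 times for Cxcr6 and 4.22 times for Ccr8, against 2.52 times for Cxcr5.

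Cxcr5 was the receptor that passed the test in Tregs, and it was lower at 4 h with each cytokine. Its level in the unstimulated libraries was 10.9, 17.8 and 20.6 RPKM for replicates 1 to 3, and after 1.5 h of IL-2 it was 16.2, 17.4 and 16.2 RPKM. After 1.5 h of IL-2-REH it was 12.04, 12.02 and 13.3 RPKM. After 4 h of IL-2 it was 6.10, 8.87 and 3.52 RPKM, and after 4 h of IL-2-REH 6.02, 6.81 and 5.67 RPKM. Every library at 4 h was below every unstimulated and every 1.5 h library. Changes were tested on read counts with edgeR's quasi-likelihood test across 15009 genes and 15 Treg libraries, and p-values were adjusted by Benjamini-Hochberg over all these genes. Cxcr5 fell by 1.36 on the log2 scale with IL-2 at 4 h (SE 0.258, adjusted p = 0.0159 in edgeR) and by 1.40 with IL-2-REH at 4 h (SE 0.258, adjusted p = 0.0381 in edgeR). Lower levels were seen in 3 of 3 same-numbered pairs for each cytokine, at 0.560, 0.499 and 0.171 of the unstimulated RPKM with IL-2 and at 0.553, 0.383 and 0.275 with IL-2-REH. It was 1 of 8 receptors called in each comparison, where 2.27% and 0.313% of all genes tested were called. Without unstimulated replicate 1, Cxcr5 was at -1.54 (adjusted p = 0.00415 in edgeR) and -1.57 (0.00475) for the 2 cytokines, and Ccr9 was called beside it in each, so that 2 of 8 receptors were called where 8.87% and 6.93% of all genes were.

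The call of Cxcr5 with IL-2 at 4 h was lost when unstimulated replicate 3 was left out (-1.14, adjusted p = 0.0779 in edgeR) and held in the other 14 fits that left out 1 Treg library. With IL-2-REH it held in 5 of 15 such fits, and the other 10 gave log2 changes of -1.44 to -1.17 with adjusted p-values of 0.0582 to 0.206 in edgeR. These 10 left out, in turn, IL-2 4 h replicate 1, IL-2 1.5 h replicates 2 and 3, IL-2-REH 1.5 h replicates 2 and 3, each IL-2-REH 4 h library, and unstimulated replicates 2 and 3. The call with IL-2-REH was also lost with limma and with only the groups compared (adjusted p of 0.0637 to 0.158), and that with IL-2 with only the groups compared (adjusted p = 0.200 in edgeR). At 4 h against 1.5 h of IL-2, Cxcr5 was at -1.54 (SE 0.259, adjusted p = 0.0597 in edgeR), and in the fit with a replicate block it passed the test (-1.53, adjusted p = 0.0268 in edgeR). Bcl9l, whose exons overlap those of Cxcr5, was at 7.76 to 24.4 RPKM in Tregs, and its log2 changes of -0.45 and -0.22 against unstimulated cells at 4 h had adjusted p-values of 0.545 and 0.842 in edgeR.

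Cxcr5 is also a gene of B cells, and 9 B cell markers (Cd79a, Cd79b, Ms4a1, Cr2, Fcer2a, Pax5, Blk, Ebf1 and Cd22) were therefore summed in each library. The sum was 3.35, 9.99 and 20.7 RPKM in the unstimulated libraries, 3.27, 3.79 and 8.23 RPKM after 4 h of IL-2, and 4.67, 4.62 and 17.8 RPKM after 4 h of IL-2-REH. No marker was without reads in any group. In the same libraries and order, Cxcr5 was at 10.9, 17.8 and 20.6 RPKM unstimulated and at 6.10, 8.87 and 3.52 RPKM after 4 h of IL-2. After 4 h of IL-2-REH it was at 6.02, 6.81 and 5.67 RPKM. In edgeR 0 of the 9 markers were called in either 4 h comparison with unstimulated cells (1 in each at an unadjusted p under 0.05; DESeq2 called 1 for IL-2 and 0 for IL-2-REH, limma 0), and with the replicate block 1 was lower in each. The T cell markers Cd3d, Cd3e and Cd3g summed to 464 to 699 RPKM in the unstimulated libraries, to 245 to 351 RPKM after 4 h of IL-2 and to 362 to 466 RPKM after 4 h of IL-2-REH. In edgeR 1 of the 3 was lower with IL-2 at 4 h (2 with the replicate block, 2 in DESeq2 and 2 in limma), with a median log2 change of -0.77, and with IL-2-REH at 4 h 0 of the 3 were called by edgeR, DESeq2 or limma and 0 had an unadjusted p under 0.05 (median -0.47). The part of these markers in the result for Cxcr5 was not tested. In bulk samples, fewer cells of a type and less RNA per cell cannot be told apart.

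Ccr4 had the highest estimate of the 8 receptors with IL-2 at 1.5 h. Its levels were 18.6, 19.3 and 16.3 RPKM in the unstimulated libraries and 54.5, 42.1 and 29.1 RPKM after 1.5 h of IL-2, with no overlap between the groups. After 1.5 h of IL-2-REH they were 33.6, 20.8 and 16.8 RPKM, which overlapped the unstimulated libraries. The log2 change with IL-2 was 1.32 (SE 0.369, 95% interval 0.53 to 2.11) and did not pass the adjusted test (adjusted p = 0.137 in edgeR). In the fit with a replicate block it did (1.30, adjusted p = 0.0120 in edgeR), as it did without unstimulated replicate 1 (1.43, adjusted p = 0.0449 in edgeR) and in DESeq2 (1.31, adjusted p = 0.0196). Without the block, 0 of 8 receptors were called by edgeR with IL-2 at 1.5 h, where 0.853% of all genes were called. An unadjusted p under 0.05 in edgeR was found for 2 receptors, beside 2068 of 15009 genes. DESeq2 called 1 receptor, beside 553 of 15009 genes, and limma called 0 receptors. With the block, 1 of 8 receptors was called where 1.83% of all genes were. Ccr6 was at 9.51, 12.4 and 10.5 RPKM unstimulated, at 25.8, 17.3 and 11.02 RPKM after 1.5 h of IL-2 and at 19.1, 12.9 and 8.49 RPKM after 1.5 h of IL-2-REH, so the groups overlapped. At 4 h it was at 13.7, 12.01 and 5.55 RPKM with IL-2 and at 9.54, 11.2 and 5.20 RPKM with IL-2-REH. With IL-2 at 1.5 h Ccr6 had an estimate of 0.84 (SE 0.325, adjusted p = 0.272 in edgeR) and was the other receptor with an unadjusted p under 0.05, and its ratios to the unstimulated RPKM were 2.72, 1.39 and 1.05 in the 3 pairs. At 4 h Ccr4 was at 37.1, 33.4 and 17.2 RPKM with IL-2 and at 25.3, 15.8 and 7.12 RPKM with IL-2-REH, and neither comparison with unstimulated cells passed (log2 change 0.75, adjusted p = 0.307, and -0.18, adjusted p = 0.881, in edgeR).

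The result for Ccr8 turned on a single library. Ccr8 was at 89.1 RPKM in unstimulated replicate 1 and at 21.1 and 22.9 RPKM in replicates 2 and 3. At 1.5 h it was at 59.5, 55.2 and 36.1 RPKM with IL-2 and at 64.4, 73.4 and 52.2 RPKM with IL-2-REH, all above the last 2 unstimulated libraries and all below the first. With all libraries the log2 changes at 1.5 h were 0.21 (adjusted p = 0.914 in edgeR) for IL-2 and 0.56 (0.700) for IL-2-REH. Without unstimulated replicate 1 they were 1.39 (adjusted p = 0.0325 in edgeR) and 1.74 (0.0125). In that fit 2 of 8 receptors were called with IL-2 (Ccr8 and Ccr4) and 1 of 8 with IL-2-REH (Ccr8), where 12.9% and 12.1% of all genes were called, so that these shares of receptors are to be read against a high background. With all libraries, edgeR, DESeq2 and limma each called 0 of 8 receptors with IL-2-REH at 1.5 h. Of all genes, edgeR called 0.0933%, and DESeq2 called 110 of 15009. In edgeR 0 receptors had an unadjusted p under 0.05, beside 1704 of 15009 genes. At 4 h Ccr8 was at 20.5, 31.8 and 10.3 RPKM with IL-2 and at 20.7, 38.1 and 14.8 RPKM with IL-2-REH. The change from unstimulated cells was -1.15 for IL-2 and -0.97 for IL-2-REH (adjusted p = 0.282 and 0.467 in edgeR), and without unstimulated replicate 1 it was 0.02 and 0.20. From 1.5 h to 4 h, a comparison without unstimulated cells, Ccr8 was lower in 3 of 3 pairs with each cytokine (ratios of 0.345, 0.576 and 0.284 with IL-2 and of 0.321, 0.519 and 0.283 with IL-2-REH), and the groups did not overlap. Neither change passed (-1.36, adjusted p = 0.244, and -1.53, adjusted p = 0.265, in edgeR).

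**Figure D2:**
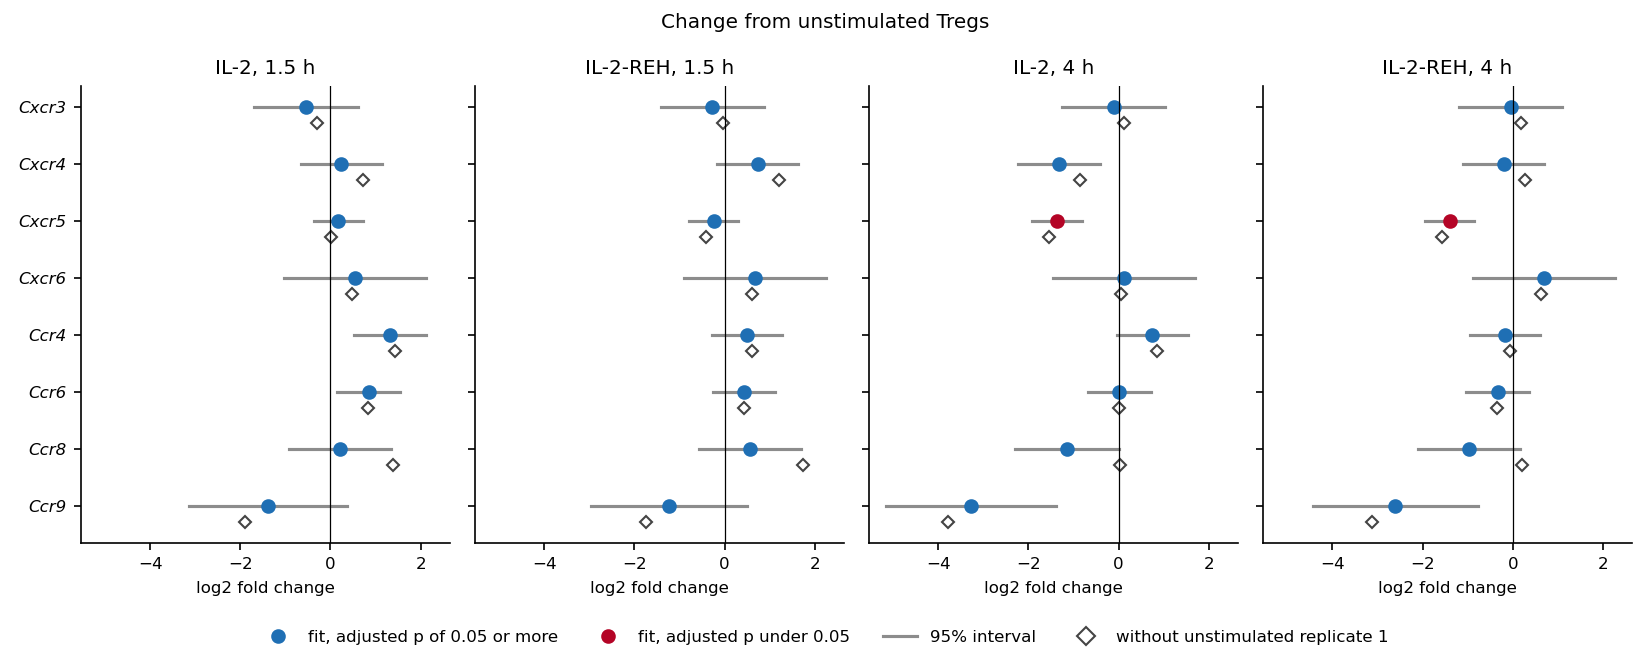
Log2 fold change of each receptor from unstimulated Tregs in the edgeR fit (circles, red where the adjusted p is under 0.05) with its 95% interval (lines), and the same without unstimulated replicate 1 (diamonds). Cxcr5 at 4 h is the receptor in red, and the diamonds of Ccr8 lie to the right of its circles in all 4 panels.

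Ccr9 was the lowest of the 8 receptors in Tregs and had the largest estimates against unstimulated cells. It was at 0.326, 5.07 and 3.34 RPKM in the unstimulated libraries, at 0.300, 1.60 and 0.851 RPKM after 1.5 h of IL-2, at 0.438, 1.78 and 0.871 RPKM after 1.5 h of IL-2-REH, at 0.280, 0.439 and 0.103 RPKM after 4 h of IL-2, and at 0.303, 0.710 and 0.357 RPKM after 4 h of IL-2-REH. Replicate 1 was low in every group, so the groups differed mainly in replicates 2 and 3. The log2 change at 4 h was -3.28 with IL-2 (SE 0.878, adjusted p = 0.0707 in edgeR) and -2.60 with IL-2-REH (SE 0.850, adjusted p = 0.195 in edgeR). With the replicate number as a block the change with IL-2 passed (-2.83, adjusted p = 0.0164 in edgeR), where 2 of 8 receptors and 6.92% of all genes were called, and that with IL-2-REH missed (-2.29, adjusted p = 0.0518 in edgeR), where 1 of 8 receptors, Cxcr5, and 3.03% of all genes were called. Without unstimulated replicate 1 Ccr9 passed in each (-3.79, adjusted p = 0.00894, and -3.12, adjusted p = 0.0230, in edgeR). The lowest of these values, 0.103 RPKM, rests on 15 reads.

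Markers of macrophages and monocytes were summed as well, and with each cytokine the sum at 4 h was lower in every same-numbered pair. The 11 markers (Lyz2, Csf1r, Cd68, Adgre1, Itgam, Cd14, Fcer1g, C1qa, C1qb, C1qc and Mpeg1) summed to 19.2, 111 and 77.8 RPKM in the unstimulated libraries, to 10.5, 39.1 and 24.9 RPKM after 4 h of IL-2, and to 14.6, 44.1 and 38.2 RPKM after 4 h of IL-2-REH. None was without reads in any Treg group. In edgeR 0 of the 11 were called in either comparison (3 for IL-2 and 2 for IL-2-REH at an unadjusted p under 0.05; DESeq2 called 1 and 0, limma 0), and with the replicate block 8 of 11 were lower with IL-2 at 4 h and 4 of 11 with IL-2-REH at 4 h. Their part in the result for Ccr9 was not tested. Of 5 markers of plasmacytoid dendritic cells, a type that also carries CCR9, Pacsin1 alone reached 1 RPKM (2.70, 19.4 and 14.9 RPKM in the unstimulated libraries), Siglech reached 0.732 RPKM in them, and the list summed to 2.88, 20.5 and 15.2 RPKM unstimulated and to 6.28, 7.68 and 7.20 RPKM after 4 h of IL-2. Markers of NK cells (4 genes) also fell in replicates 2 and 3. They summed to 0.286, 7.38 and 4.51 RPKM in the unstimulated libraries and to 0.338, 4.80 and 1.43 RPKM after 4 h of IL-2. After 4 h of IL-2-REH the sum was 0.0174, 1.86 and 1.81 RPKM. In edgeR 0 of the 4 were called in either comparison (median log2 change -1.31 and -1.56). With the replicate block 1 was lower with IL-2-REH at 4 h and 0 with IL-2. The part of NK cell markers in the result for Ccr9 was not tested. Markers of red cells (8 genes) summed to 194 to 341 RPKM in the 5 libraries of replicate 3 and to 7.90 to 31 RPKM in the other 10.

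**Figure D3:**
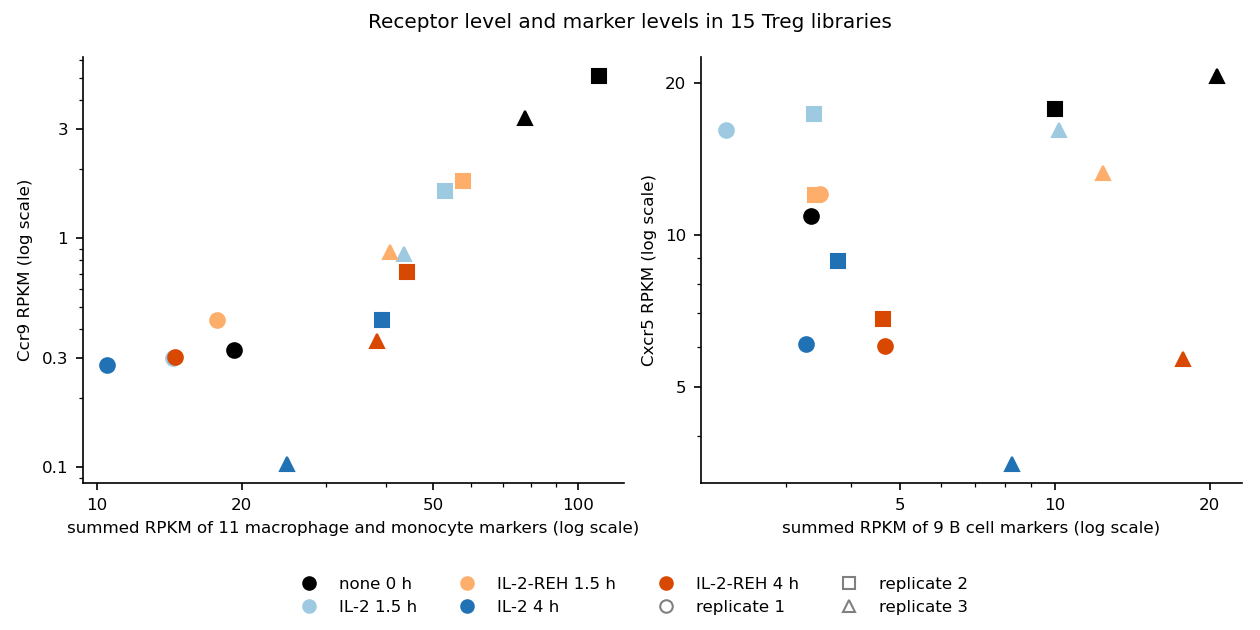
Levels in the 15 Treg libraries (both axes RPKM, log scale), coloured by condition, with symbols for replicates. Left, Ccr9 against the sum of 11 macrophage and monocyte markers, which are highest in unstimulated replicates 2 and 3. Right, Cxcr5 against the sum of 9 B cell markers, which are highest in unstimulated replicate 3.

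Cxcr4 had the widest range of level in RPKM. It was at 274, 73.7 and 211 RPKM in the unstimulated libraries. At 1.5 h it was at 186, 209 and 227 RPKM with IL-2 and at 252, 281 and 339 RPKM with IL-2-REH. At 4 h it was at 78.5, 101 and 48.0 RPKM with IL-2 and at 147, 171 and 189 RPKM with IL-2-REH. All IL-2-REH libraries were above all IL-2 libraries at each time, and the 4 h libraries were below the 1.5 h libraries for each cytokine. The change from 1.5 h to 4 h was -1.57 with IL-2 (SE 0.429, adjusted p = 0.204 in edgeR) and -0.93 with IL-2-REH (SE 0.422, adjusted p = 0.330 in edgeR). Against unstimulated cells, Cxcr4 was at -1.33 with IL-2 at 4 h (adjusted p = 0.128 in edgeR), which passed in DESeq2 (-1.32, adjusted p = 0.0288) and, in edgeR, without unstimulated replicate 2 (-1.74, adjusted p = 0.0195). It was at -0.85 without unstimulated replicate 1 (adjusted p = 0.210 in edgeR).

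From 1.5 h to 4 h, with unstimulated cells left out of the comparison, 7 of 8 receptors had estimates below 0 with IL-2 and 6 of 8 with IL-2-REH, with a median log2 change of -1.10 and -0.85 beside 0.03 and 0.04 over all genes tested. In edgeR 0 of 8 receptors and 0% of all genes were called for either cytokine. At an unadjusted p under 0.05 in edgeR there were 5 receptors for IL-2 and 4 for IL-2-REH, beside 2551 and 2188 of 15009 genes. DESeq2 called 2 (Cxcr4 and Cxcr5) and 1 (Cxcr5), beside 374 and 257 of 15009 genes, and limma called 0 receptors in each. With the replicate block 1 of 8 receptors, Cxcr5, was called with IL-2, where 0.386% of all genes were called, and without unstimulated replicate 1 the same receptor was called, where 0.678% were. Cxcr3 and Cxcr6 differed between replicate numbers. Cxcr3 was at 27.0 to 34.5 RPKM in the 5 libraries of replicate 1 and at 7.64 to 22.2 RPKM in the other 10, and the groups overlapped. Replicates 2 and 3 were at 22.2 and 19.7 RPKM unstimulated and at 7.64 and 9.57 RPKM after 1.5 h of IL-2. Replicate 1 was at 27.0 and 28.6 RPKM. With the replicate block the log2 change of Cxcr3 with IL-2 at 1.5 h was -0.71 (adjusted p = 0.0983 in edgeR). Cxcr3 passed in edgeR only with IL-2 at 1.5 h when replicate 1 was left out of every group (-0.96, adjusted p = 0.0423). In that comparison the same fit called 2509 of 14477 genes, a high background. Cxcr6 was highest in replicate 2 of every group (4.93 to 10.9 RPKM, against 1.25 to 3.45 RPKM in the other 10 libraries), and its log2 changes against unstimulated cells were 0.12 to 0.69.

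The comparison of the cytokines asked whether the weakened mutant gave the same response as IL-2. At 1.5 h and at 4 h, edgeR called 0 of 8 receptors between IL-2-REH and IL-2, where 0.0133% and 0.0267% of all genes were called. At an unadjusted p under 0.05 in edgeR there were 1 and 2 receptors, beside 149 and 558 of 15009 genes. DESeq2 and limma called 0 receptors at each time, where DESeq2 called 15 and 59 of 15009 genes. Ccr4 was lower with IL-2-REH in 3 of 3 pairs at each time, at 0.617, 0.493 and 0.578 of the IL-2 level at 1.5 h and at 0.683, 0.472 and 0.413 at 4 h. Its log2 difference was -0.83 at 1.5 h (95% interval -1.61 to -0.04, adjusted p = 1.0 in edgeR) and -0.92 at 4 h (-1.71 to -0.14, adjusted p = 1.0 in edgeR). With the replicate block Ccr4 was at -0.84 at 1.5 h (unadjusted p = 0.00287 in edgeR). At 4 h it was at -0.99 (unadjusted p = 0.000858, adjusted p = 0.181 in edgeR). That fit called 0 of 8 receptors at either time, where 2 and 10 of 15009 genes were called. Ccr6 was also lower in 3 of 3 pairs at each time, with ratios of 0.738, 0.749 and 0.771 at 1.5 h and of 0.694, 0.932 and 0.937 at 4 h, and intervals that reached 0 (-0.42, 95% interval -1.11 to 0.28, and -0.34, -1.04 to 0.36).

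Cxcr4 went the other way. With IL-2-REH it was 1.36, 1.35 and 1.49 times the IL-2 level in the 3 pairs at 1.5 h and 1.87, 1.71 and 3.95 times at 4 h. Its log2 difference was 0.49 at 1.5 h (95% interval -0.41 to 1.39, adjusted p = 1.0 in edgeR) and 1.12 at 4 h (0.21 to 2.03, adjusted p = 1.0 in edgeR). Ccr8, Cxcr6 and Ccr9 were likewise higher with IL-2-REH in 3 of 3 pairs at each time, and their intervals spanned 0 (at 4 h, 0.18 with -0.96 to 1.31, 0.57 with -1.01 to 2.15, and 0.67 with -1.09 to 2.44). Cxcr5 was lower in 3 of 3 pairs at 1.5 h (-0.41, -0.96 to 0.13), with no overlap of the groups, and was not separated at 4 h (-0.04, -0.58 to 0.51). Cxcr3 was higher with IL-2-REH in 3 of 3 pairs at 1.5 h (0.27, -0.88 to 1.41) and in 2 of 3 at 4 h (0.07, -1.07 to 1.21). The change of the difference from 1.5 h to 4 h was called by edgeR, DESeq2 and limma for 0 of 8 receptors, with 0 at an unadjusted p under 0.05 and 0% of all genes called. Its estimates ran from -0.20 for Cxcr3 to 0.64 for Cxcr4, with intervals of -1.81 to 1.42 and -0.64 to 1.91. The adjusted p-values miss the threshold and do not show that the cytokines act alike on these receptors.

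**Figure D4:**
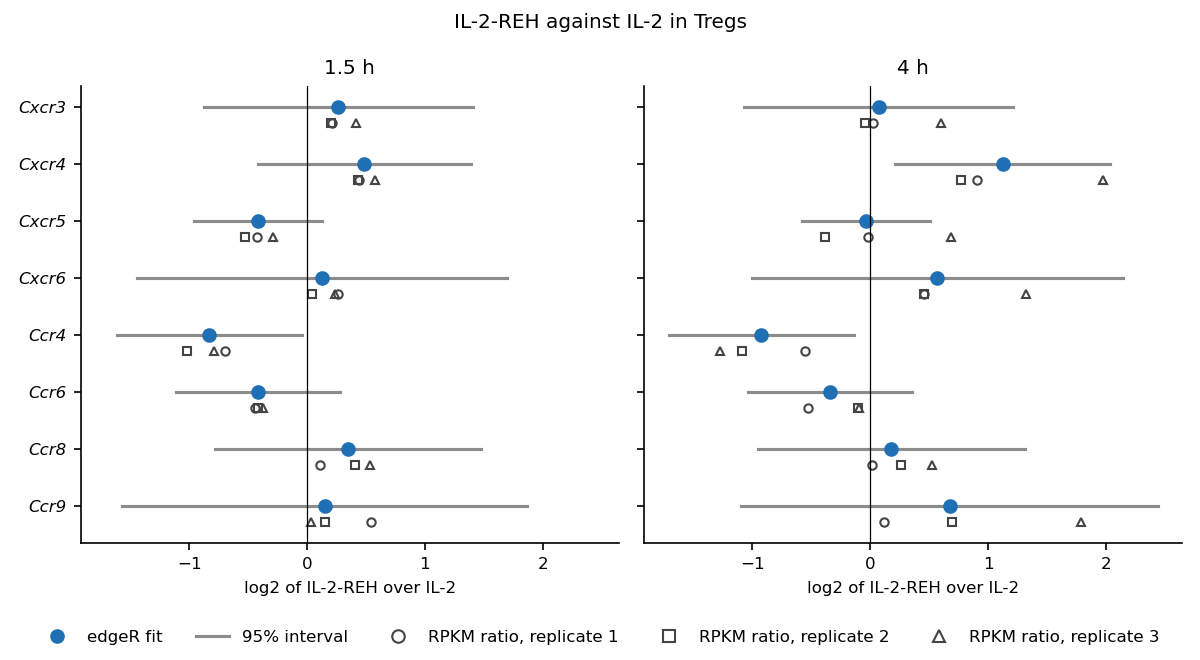
Log2 of IL-2-REH over IL-2 in Tregs at 1.5 h (left) and 4 h (right), as the edgeR estimate (filled circle) with its 95% interval (line), and the RPKM ratio of each same-numbered pair (open symbols). All 3 pairs of Ccr4 lie below 0 and all 3 pairs of Cxcr4 above 0 at both times.

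In CD8+ T cells, with 1 library per condition, there is no replicate check and no test. Values are log2 ratios of RPKM + 1, which understate the change of low genes, for the 10021 genes with a mean of at least 1 RPKM, and 5 of the 8 receptors were among them (Cxcr3, Cxcr4, Cxcr5, Cxcr6 and Ccr9). Cxcr4 was at 103 RPKM in unstimulated CD8+ cells, at 63.6 RPKM with IL-2 and 84.2 RPKM with IL-2-REH at 1.5 h, and at 26.8 RPKM with IL-2 and 51.7 RPKM with IL-2-REH at 4 h. Its log2 ratio to unstimulated cells at 4 h was -1.90 for IL-2 and -0.98 for IL-2-REH. Ccr9 was at 12.6 RPKM unstimulated, at 2.97 and 3.88 RPKM at 1.5 h and at 1.93 and 4.46 RPKM at 4 h, with IL-2 and IL-2-REH in that order, so each stimulated library was below the unstimulated one. Its log2 ratios were -1.78, -1.48, -2.21 and -1.31 in the same order. More than 2-fold from unstimulated cells were 1 receptor of the 5 with IL-2 at 1.5 h (Ccr9), where 7.24% of all genes were, and 1 with IL-2-REH at 1.5 h (Ccr9), where 8.57% were. The median log2 ratio over all genes was -0.12 with IL-2-REH at 1.5 h and between -0.07 and -0.02 in the other 3 comparisons. At 4 h there were 2 with IL-2 (Cxcr4 and Ccr9), where 4.71% of all genes were past 2-fold, and 1 with IL-2-REH (Ccr9), where 6.11% were.

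Between the cytokines, 0 of the 5 receptors were more than 2-fold apart on the scale of RPKM + 1 in CD8+ cells at 1.5 h, where 0.868% of all genes were, and 0 at 4 h, where 2.23% were. With IL-2-REH at 4 h, Cxcr4 was at 1.93 times, Cxcr5 at 1.85 times, Cxcr6 at 1.53 times and Ccr9 at 2.31 times the IL-2 level in RPKM, and Cxcr3 at 0.630 times (17.0 against 27.0 RPKM). The log2 ratio of Ccr9 was 0.90 on the scale of RPKM + 1, from 1418 and 575 reads. Cxcr5 was at 6.72 RPKM unstimulated, 3.91 RPKM with IL-2 and 7.22 RPKM with IL-2-REH at 4 h. The 11 macrophage and monocyte markers summed to 54.9 RPKM in the unstimulated CD8+ library and to 21.6 to 30.3 RPKM in the other 4, and the 4 NK cell markers to 14.5 and to 6.25 to 9.11 RPKM. The 5 markers of plasmacytoid dendritic cells summed to 12.5 RPKM in the unstimulated library and to 2.72 to 7.07 RPKM in the other 4, and the 9 B cell markers to 13.5 and to 3.95 to 5.79 RPKM. Markers of the sample's own type were also highest unstimulated, with 751 against 411 to 486 RPKM for Cd3d, Cd3e and Cd3g and 728 against 282 to 493 RPKM for Cd8a and Cd8b1. The part of these markers in the ratios of the receptors was not tested.

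**Figure D5:**
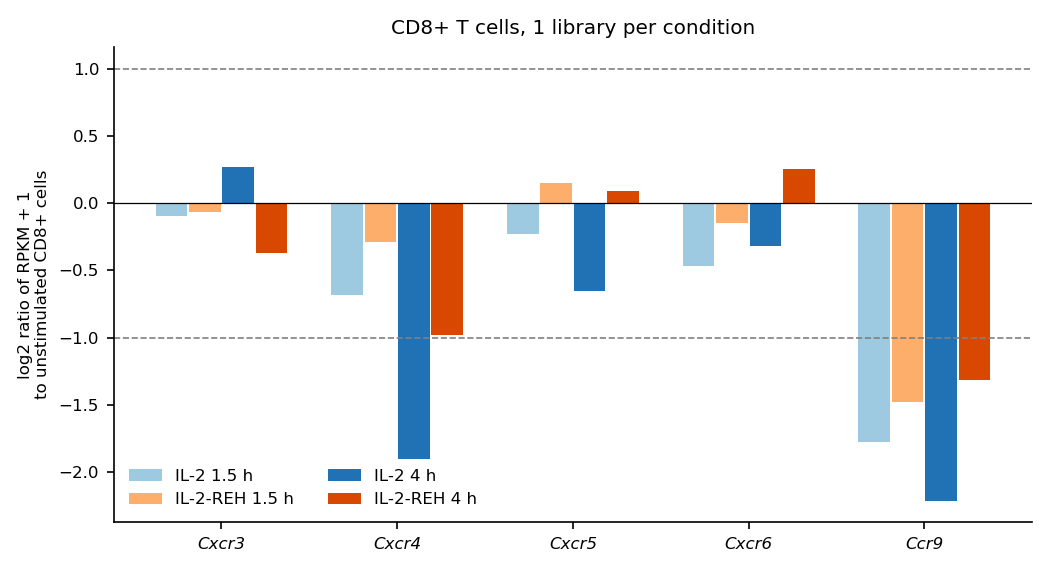
Log2 ratio of RPKM + 1 to the unstimulated CD8+ library for the 5 receptors that passed the filter on low values (bars, 1 library per condition), with dashed lines at 2-fold. Ccr9 is below the lower line in all 4 conditions and Cxcr4 with IL-2 at 4 h.

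The receptors set the cell types apart in different directions. Ccr4, Ccr6 and Ccr8 were above all 5 CD8+ libraries in all 15 Treg libraries, 3 of 8 receptors where 7.24% of the 10457 genes with a mean of at least 1 RPKM over 20 libraries were. These 3 passed that filter through their Treg levels, since their CD8+ means were 0.359, 0.231 and 0.123 RPKM. With 15 of the 20 libraries from Tregs, the filter admits genes high in Tregs more readily than genes high in CD8+ cells. Shares under this filter, here and in the next paragraph, are therefore a description only. Ccr8 was at 10.3 to 89.1 RPKM in Tregs and at 0.0128 to 0.320 RPKM (46 reads over 5 libraries) in CD8+ cells, and its mean in Tregs was 331 times that in CD8+ cells. Within the conditions the ratio was 198 at 1.5 h of IL-2-REH, where the CD8+ library held 23 of the 46 reads, and 367 to 525 in 3 of the other 4. In the last, IL-2 at 4 h, the CD8+ library held 1 read and no ratio is given. Ccr4 was at 7.12 to 54.5 RPKM against 0.198 to 0.557 RPKM (333 reads), 71.9 times by the means (48.3 to 81.3 within the conditions), and Ccr6 at 5.20 to 25.8 RPKM against 0.0672 to 0.389 RPKM (133 reads), 53.2 times (27.8 to 155). At these levels of 8 to 108 reads per library for Ccr4 and Ccr6 and 1 to 23 for Ccr8, changes within CD8+ cells were not read.

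Cxcr6 and Ccr9 were higher in CD8+ cells. Cxcr6 was at 10.8 to 18.4 RPKM there and at 1.25 to 10.9 RPKM in Tregs, where IL-2-REH 4 h replicate 2 alone reached into the CD8+ range. Ccr9 was at 1.93 to 12.6 RPKM in CD8+ cells and at 0.103 to 5.07 RPKM in Tregs. No receptor was below all CD8+ libraries in all 15 Treg libraries, where 2.74% of all genes were. Compared within each of the 5 conditions, the CD8+ library was above all 3 Treg libraries throughout for Cxcr6 and Ccr9 (2 of 8 receptors, where 7.77% of all genes were) and below them throughout for Ccr4, Ccr6 and Ccr8 (3 of 8, where 14.2% were). The ratio of CD8+ to mean Treg level was 2.58 to 4.63 for Cxcr6 and 3.24 to 9.76 for Ccr9 over the conditions. Cxcr4 was 2.82 times higher in Tregs by the means (186 against 65.8 RPKM) and Cxcr5 1.86 times (11.6 against 6.20 RPKM), with overlap, and Cxcr3 was at 19.8 and 21.6 RPKM. Cell types also differed in mouse strain and in sorting, which cannot be told apart from cell type here.

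With all libraries few of the other genes of the pathway passed the test. Of 15 other chemokine receptors 11 were tested, and Ccrl2, an atypical receptor that binds chemerin, was the member that fell with IL-2 at 4 h (from 7.49 ± 1.76 to 2.07 ± 1.02 RPKM, SD, n = 3; log2 change -1.85, adjusted p = 0.0392 in edgeR), with 0 higher, where 2.27% of all genes were called. In the other 8 comparisons edgeR called 0 of the 11, at most 1 had an unadjusted p under 0.05, and DESeq2 called 1 (with IL-2-REH at 4 h) and limma 0. With the replicate block 2 were lower with IL-2 at 4 h, Ccrl2 and Ccr3, where 6.92% of all genes were called. Ccr7, the receptor for entry into lymph nodes, had the highest level of the list (mean 313 RPKM in Tregs) and behaved like Ccr8 across the unstimulated libraries, with 439 RPKM in replicate 1 and 77.8 and 101 RPKM in the others. Ccr2, which leads monocytes and effector T cells to inflamed sites, was next (mean 10.8 RPKM), with log2 changes of -0.46 to -0.04. Without unstimulated replicate 1 Ccr7 was 1.99 and 2.61 higher at 1.5 h with IL-2 and IL-2-REH (adjusted p = 0.00615 and 0.00171 in edgeR). In that fit 1 of the 11 was called with IL-2-REH at 1.5 h (Ccr7), where 12.1% of all genes were called, and 1 with each cytokine at 4 h (Ccrl2 for IL-2 and Ccr7 for IL-2-REH), where 8.87% and 6.93% were. Of 12 ligands of the 8 receptors 7 were tested and edgeR, DESeq2 and limma called 0 in any of the 9 comparisons, with at most 2 at an unadjusted p under 0.05. In the fit that left out unstimulated replicate 1, 8 ligands were tested and 1 was called, Cxcl16 with IL-2-REH at 1.5 h. The 2 most abundant were Cxcl10, a ligand of CXCR3 (mean 6.65 RPKM), and Ccl20, the ligand of CCR6 (mean 1.11 RPKM), and the other 10 ligands had means of at most 0.666 RPKM. The log2 changes of Cxcl10 against unstimulated cells ran from -1.16 to 0.04, and those of Ccl20 from 0.75 to 2.61 (adjusted p of at least 0.217 in edgeR). Of 21 signal transducers, all tested, Rac2, a GTPase of blood cells, fell with IL-2 at 4 h (from 200 ± 82.4 to 72.7 ± 29.5 RPKM, SD, n = 3; log2 change -1.37, adjusted p = 0.0430 in edgeR), with 0 higher, and edgeR called 0 in the other 8 comparisons, with at most 7 at an unadjusted p under 0.05, at most 2 called by DESeq2 and 0 by limma. When unstimulated replicate 1 was left out more were called against unstimulated cells, with 5 of 21 called for each cytokine at 1.5 h, and at 4 h 6 for IL-2 and 3 for IL-2-REH, beside 12.9%, 12.1%, 8.87% and 6.93% of all genes. Rac2 was among the lower ones in all 4. Gnai2, the inhibitory G protein subunit that most chemokine receptors use, was the most abundant (mean 176 RPKM) and had log2 changes of -0.18 to 0.02 against unstimulated cells. Rap1b, a GTPase that controls adhesion, was next (mean 144 RPKM), with log2 changes of -0.80 to 0.23.

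Likeness across the 15 Treg libraries was measured as Pearson's r of log2(RPKM + 1) among the 10473 genes with a mean of at least 1 RPKM, as a description, since libraries of a replicate number share more than their condition. Among the receptors themselves r was highest for Ccr4 and Ccr6 (0.843) and next for Cxcr4 and Ccr8 (0.751), and lowest for Cxcr3 and Cxcr6 (-0.523). The genes most like Cxcr5 were Ifih1 (r = 0.943), Cd44 (0.925) and Nedd9 (0.923), and those most like Ccr8 were Tiprl (0.963), Sla (0.961) and Kctd12 (0.961). For Ccr4 Ccdc71l (0.929) and Snx2 (0.860) were among them, and for Ccr6 Mtmr7 (0.914), Kbtbd8 (0.911) and Aasdhppt (0.909). Cxcr4 was most like Dusp10 (0.935), Selk (0.892) and Pcna (0.888), Cxcr3 like Nrn1 (0.935), Ufm1 (0.923) and Gpr55 (0.918), and Cxcr6 like Erdr1 (0.907), Pou2f1 (0.904) and Ranbp10 (0.904). The genes most like Ccr9 were Slc40a1 (0.977), Dzip1 (0.974) and Ptprv (0.973).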

How the data were processed

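Poly(A) RNA of 15 Treg and 5 CD8+ libraries was prepared with the Kapa mRNA HyperPrep kit and sequenced on an Illumina instrument. The submitters' processing notes name Bowtie2 2.2.6, TopHat2 2.1.1, SAMtools 0.1.8, bedtools 2.25.0 and edgeR, with build mm10. The deposited files hold, per RefSeq transcript, the read counts that the authors made and their RPKM values, without pooling of replicates. The strand setting and the annotation release are not given in the sources used here.

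The transcript with the most reads stood for each of 23992 symbols (4343 had several transcripts). Treg counts were fitted with edgeR 4.0.16 in R 4.3.3 (TMM, filterByExpr, quasi-likelihood test, 1 mean per group, 15009 genes), and genes were called at a Benjamini-Hochberg adjusted p under 0.05. limma 3.58.1 on log2(RPKM + 1) or log2(RPKM + 0.1) and DESeq2 1.42.0 served as alternatives, as did RLE size factors, no filter on low counts, the longest transcript, only the groups compared, a replicate block, and leaving out each library or replicate number. The test was also run on simulated counts, drawn independently for each library. That run did not include the likeness of same-numbered libraries described below, so it does not cover the spread of these data. CD8+ groups had 1 library and no test, and were compared as log2 ratios of RPKM + 1 with a threshold of 1 over genes with a mean of at least 1 RPKM. No 2 libraries were identical. The depth was 20201392 to 63903764 reads per library, so that low genes such as Ccr9 rest on as few as 15 reads. Intervals of 95% come from the edgeR fit.

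Same-numbered libraries of different Treg groups deviated together from their group means (correlations of 0.121 to 0.839, mean 0.538). The mean between other numbers was -0.257. Deviations sum to 0 within a group, which pushes that value below 0 when same numbers agree, so it is no separate check. From the same-numbered correlations the numbers were taken to pair the libraries, as a reading of the data and not of a label. The fit with the replicate number as a block is given where it changes a call.

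All 8 receptors were tested in every Treg comparison, but the text does not give a value for each of them in each comparison. From further lists, at most 4 genes past the threshold were named, or, with none, the 2 with the highest mean RPKM in Tregs, and the 3 genes most like each receptor by Pearson's r. A B cell marker and a gene alike to Ccr4 are not reported here, and the marker was left out of the sums. The receptors, lists and tests were chosen with earlier results of these data known. Promoters and the motif search used RefSeq sequence of GRCm38.p6, and exon overlaps GENCODE annotation of GRCm38.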

Additional observations from a re-analysis of the deposited data

Results flagged for a closer look

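Among the 5 receptors that passed the CD8+ filter on low values (Cxcr3, Cxcr4, Cxcr5, Cxcr6 and Ccr9), in 3 cases the single CD8+ library of a condition and all 3 Treg pairs lay on opposite sides of 0, on the scale of log2 ratios of RPKM + 1. The difference between the cell types was not tested, since CD8+ cells had 1 library per condition.

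Cxcr5 with IL-2-REH at 4 h was at 0.0897 against unstimulated cells in CD8+ T cells, and the 3 Treg pairs ran from -1.6971 to -0.7597. For IL-2-REH against IL-2 at 1.5 h, Cxcr5 was at 0.3768 in CD8+ T cells and at -0.495 to -0.2673 in the Treg pairs. Cxcr6 with IL-2-REH at 1.5 h was at -0.1473 against unstimulated cells in CD8+ T cells and at 0.0875 to 0.5242 in the Treg pairs. The 3 CD8+ values are each less than 2-fold, and those for Cxcr5 rest on 1015 to 1367 reads per library.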

How the results depend on the processing

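No result turned its direction while called, and of 1962 values under alternatives 1831 kept their call or stayed close to the reported value. Most of these values were not called as reported, and staying uncalled counts as kept. The call of Cxcr5 with IL-2-REH at 4 h held in 5 of 15 fits without 1 library, 1 of 3 without a replicate number and 5 of 8 other alternatives. That with IL-2 at 4 h held in 14 of 15, 1 of 3 and 7 of 8. Counts are of the 8 receptors. Against unstimulated Tregs, IL-2 at 1.5 h gave 0 called as reported, 1 with the replicate block, 1 in DESeq2 and 0 to 2 when a library or replicate number was left out. IL-2-REH at 1.5 h gave 0, and 0 to 1 with a library or replicate number left out. IL-2 at 4 h gave 1, 2 with the replicate block, 3 in DESeq2, 0 with only the groups compared and 0 to 2 in the fits that left out a library or number. IL-2-REH at 4 h gave 1, 2 in DESeq2, 0 with limma at either pseudocount, 0 with only the groups compared and 0 to 2 in the fits that left something out. From 1.5 h to 4 h, IL-2 gave 0, 1 with the replicate block, 2 in DESeq2 and 0 to 1 with a library or number left out, and IL-2-REH gave 0 and 1 in DESeq2. The block changed the call of Ccr4 with IL-2 at 1.5 h, Ccr9 with IL-2 at 4 h and Cxcr5 from 1.5 h to 4 h of IL-2, and no other call of a receptor. Cxcr5 at 4 h lost its call without replicate 2 or 3 of every group (adjusted p of 0.254 to 0.309 with IL-2 and 0.703 to 0.835 with IL-2-REH in edgeR), where fewer libraries were fitted. In CD8+ cells, a threshold of 4-fold left 0 receptors for IL-2 and 0 for IL-2-REH at 1.5 h, and 1 and 0 at 4 h, and a pseudocount of 0.1 gave 1 receptor past 2-fold between the cytokines at 4 h in place of 0. Over all 15009 genes, IL-2 at 1.5 h called 128 genes, 275 with the block and 553 in DESeq2, IL-2 at 4 h 341, 1038 and 1016, IL-2-REH at 1.5 h 14, 32 and 110, and IL-2-REH at 4 h 47, 455 and 565. From 1.5 h to 4 h the counts were 0, 58 and 374 with IL-2 and 0, 6 and 257 with IL-2-REH, and between the cytokines 2, 2 and 15 at 1.5 h and 4, 10 and 59 at 4 h. Without unstimulated replicate 1 the counts against unstimulated cells were 1997, 1874, 1374 and 1073. Causes of these differences were not tested.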
